A study of Caenorhabditis elegans with 4 samples.

Results

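REC-8 regions on chromosome IV are the entries of the series-level peak list whose chromosome is IV, and no measured value entered the choice. They number 1249 of the 7283 regions of that list. The protein REC-8, a kleisin subunit of meiotic cohesin in C. elegans, was mapped on the genome by chromatin immunoprecipitation and sequencing (ChIP-seq). The series held 4 libraries, 2 from REC-8 ChIP with a polyclonal rabbit antibody, purified by affinity, and 2 from input DNA. All came from hermaphrodites of the strain fem-2(b245), genotype fem-2(b245)III, raised at 20 °C and labelled as germline-containing young adults, while the growth protocol speaks of gravid adults. Every animal therefore carried the fem-2 allele, and whole animals were used, so the germ cells in which REC-8 acts were mixed with somatic cells. A peak list existed for each REC-8 library (replicate 1 and replicate 2) and for the series as a whole, 3 lists in all. The labels do not tell whether separate cultures were used for the replicates, which may thus be technical, and the number of reads behind each list is unknown.

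Cohesin is a ring that holds sister chromatids together, and a kleisin subunit closes it. In meiosis REC-8 can take the place of the mitotic kleisin. It helps to build the axis along which each chromosome is folded into loops, and is removed in steps so that homologues separate before sisters do. Chromosome IV is an autosome, holocentric like the other C. elegans chromosomes, with repeat-rich arms in which crossovers are frequent and a gene-dense centre in which they are rare. It carries the rec-8 gene itself and, as direct neighbours among protein-coding genes of the RefSeq table for WBcel235, zim-1, zim-2, zim-3 and him-8, whose zinc-finger proteins bind the pairing centres of meiotic chromosomes. ZIM-3 is the one that binds the pairing centre of IV. Coordinates are in build WS220, which differs from WBcel235, so regions were not assigned to genes and are named by position.

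Chromosome IV had about as many REC-8 regions per Mb as chromosome II. A higher share of its regions was strong (a score of 100 or more) than in the whole list. Most of these strong regions lay in the arms. Its 55 regions with a series-level score of 100 or more, on the authors' own scale, made up 4.40% of its regions, against 2.87% of the whole list. X was close to this, with 48 such regions (4.35%), and the other chromosomes had 22 to 29. Of the 55 on IV, 46 lay in the arms and 9 in the centre, or 3.94 and 1.54 per Mb. For this the chromosome was cut into 3 equal parts, a left arm, a centre and a right arm. Regions of all scores numbered 69.1 per Mb in the arms and 76.0 in the centre. Members of a list are not replicates, and with 1 series-level list and 2 replicate lists no test between chromosomes or between parts of IV was made, so these are descriptions. The steps of score used here were chosen after the values were seen. Among them, 100 gave the largest ratio of arms to centre on IV, 2.56, against 1.26 at 50 and 1.38 at 150.

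IV held 17.2% of the 7280 regions on the nuclear chromosomes (95% Wilson interval 16.3 to 18.0%, counting error only). With 71.4 regions per Mb over 17.5 Mb it lay next to II (72.1), below I (90.2) and III (98.5) and above X (62.3) and V (53.2). The regions covered 536 kb, or 3.07% of the chromosome, within the range of 2.37 to 3.87% on the other 5 chromosomes. Scores on IV ran from 1.30 to 188.32 with a median of 8.05 (95% interval of the median 7.50 to 8.61), and the medians of the other chromosomes lay between 7.61 and 8.28. The highest score on IV lay below those of X (199.82) and III (193.65). Its 90th percentile of score was 50.6, against 38.0 to 46.5 elsewhere, and 155 of its regions (12.4%, interval 10.7 to 14.4%) fell in the highest decile of the nuclear list, which holds 10.0% of all regions. This share was 8.62 to 11.3% on the other chromosomes. At a score of 50 or more IV held 127 regions (10.2%, against 8.18% of the list), and at 150 or more it held 15 (1.20%, against 0.92%). At 150 or more the share was higher on X, with 20 regions (1.81%), and on V, with 14 (1.26%).

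The strongest region of IV ran from 8072899 to 8074471 and had a series-level score of 188.32. In the replicate lists it scored 3100 in both, a value that 21 replicate 1 peaks and 13 replicate 2 peaks of IV had in common, so the replicate scores do not rank these peaks among themselves. The regions from 9410361 to 9412524 (179.31), from 9066028 to 9069028 (173.34) and from 8468478 to 8471610 (156.04) also lay in the centre and also scored 3100 in both replicates. These 4 were 1573, 2164, 3001 and 3133 bp wide. The centre thus had 9 of the 55 strong regions, but 4 of the 10 highest.

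The other 6 of the 10 highest lay in the arms. In the left arm the region from 1439774 to 1441245 scored 173.18 in the series-level list, 2663.61 in replicate 1 and 1781.37 in replicate 2. Its neighbour among the 10, from 1344836 to 1346297, scored 172.21, 3100 and 2167.33. In the right arm the region from 16129296 to 16129844 reached a series-level score of 173.27 although it was only 549 bp wide, the narrowest of the 10. The right arm also held the region from 16880319 to 16881290 (167.99) and a close pair. The members of that pair, from 13881531 to 13882208 (164.90) and from 13884107 to 13884916 (174.30), were 1898 bp apart, with 1 weak region (score 1.88) between them. All 10 were met by peaks of both replicates, and the next region in the ranking scored 155.68.

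**Figure D1:**
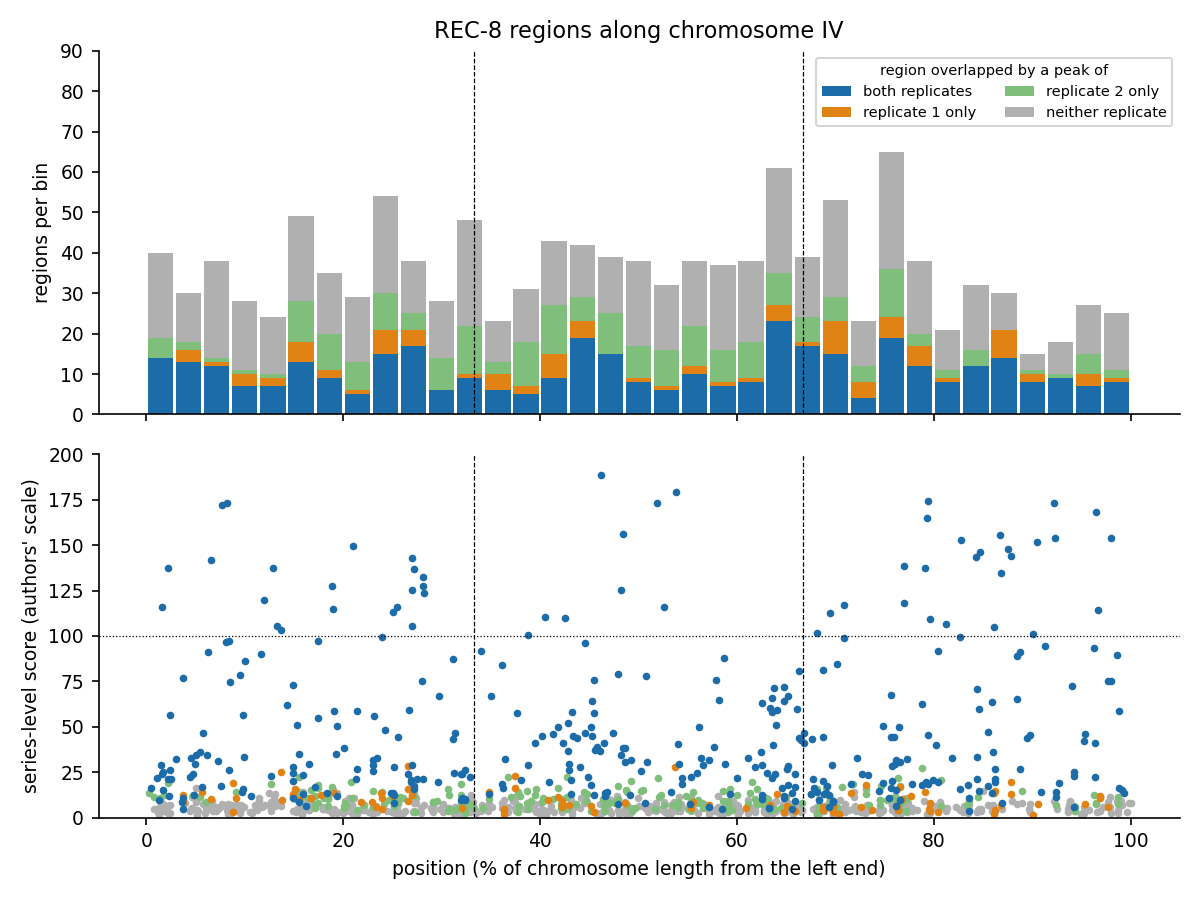
Series-level REC-8 regions along chromosome IV, with position as percent of the chromosome's length. Upper panel: regions in each of 35 bins of about 500 kb, coloured by the replicates whose peaks overlap them by at least 1 bp. Lower panel: series-level score of each region, with a dotted line at a score of 100 and dashed lines at the bounds of arms and centre. Most of the 55 regions above the dotted line lie in the arms, and 2.50 Mb to the right of the middle hold none.

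The higher density of strong regions in the arms was present in each replicate's own list as well. In replicate 1, 61 of the 471 peaks on IV (13.0%, against 10.0% of the list) were in the list's highest score decile, and 23 of them lay in the left arm, 9 in the centre and 29 in the right arm. In replicate 2 it was 84 of 621 (13.5%, against 10.0%), of which 29, 20 and 35 lay in these parts. Arms and centre thus carried 4.46 and 1.54 such peaks per Mb in replicate 1 and 5.49 and 3.43 in replicate 2. In the series-level list the step of score mattered. At 50 or more the arms carried 7.80 regions per Mb and the centre 6.17, a ratio of 1.26, at 100 or more the ratio was 2.56, and at 150 or more it was 1.38 with 11 and 4 regions. The share of the strong regions at 100 or more that lay in the arms was 83.6% (95% Wilson interval 71.7 to 91.1%), while the arms held 806 of all 1249 regions.

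On the other chromosomes the ratio of arms to centre at a score of 100 or more was 1.90 on X, 1.50 on I, 1.43 on II, 0.95 on V and 0.722 on III. The order of IV and X depended on the step, since the ratio on X was 1.79 at 50 or more and 2.83 at 150 or more, both above those of IV. At 150 or more the ratio on I, 1.50 with 6 and 2 regions, was also above that of IV. In the highest decile of replicate 1, X carried 3.98 peaks per Mb in the arms and 1.69 in the centre, and in that of replicate 2 it carried 5.00 and 3.05. Both arms held more strong regions than the centre on IV, with 21 and 25 against 9, and on X, with 18 and 20 against 10. The same held on II by a smaller margin, with 8 and 12 against 7. The arms of I were unlike each other, with 17 in the left and 4 in the right. The right arm of IV, from 11662427 to 17493639, had the highest share of strong regions of all 18 parts of the 6 chromosomes, 6.74%, where the others had 1.06 to 5.00%. It also had the highest 90th percentile of score, 72.5 against 31.3 to 58.6, and the highest share of regions of 1000 bp or more, 9.97% against 3.18 to 7.89%. The replicate lists differed on this width. In replicate 1 its share was 17.6% in the right arm of IV and 18.5% in each arm of V. In replicate 2 it was 9.24% in the right arm of IV, against at most 8.94% elsewhere. At the same time the right arm was the sparsest part of IV, with 63.6 regions per Mb against 74.6 in the left arm and 76.0 in the centre. Covered length was nearly equal, at 3.10% of the right arm, 3.06% of the left arm and 3.04% of the centre.

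**Figure D2:**
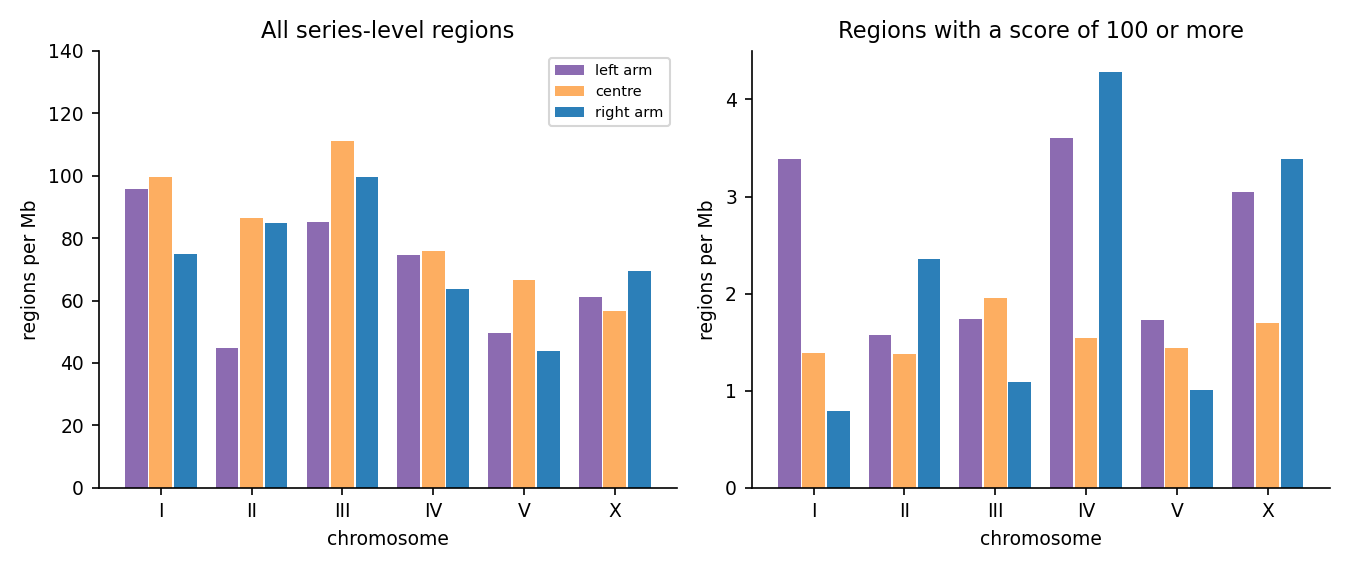
Density of series-level REC-8 regions (regions per Mb) in the left arm, centre and right arm, 3 equal parts of each chromosome, for all regions (left panel) and for those with a score of 100 or more (right panel). On IV the arms carry 3.60 and 4.29 strong regions per Mb and the centre 1.54, while the bars for all regions are 74.6, 76.0 and 63.6.

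The number of strong regions in a bin did not follow how crowded the bin was. Across the 35 bins of about 500 kb, the number of regions and the number of strong ones had a Spearman's rho of -0.04, a description of bins of 1 chromosome that share their libraries. The longest stretch of IV without a score of 100 or more ran from 9412525 to 11912950, or 2.50 Mb, and started at the end of the second strongest region. It held 205 regions, 82.0 per Mb, with a highest score of 88.16 and a median of 7.38, and 64 of them (31.2%) were met by peaks of both replicates. Within it lay the second densest of the 35 bins, from 10996002 to 11495819, with 61 regions and no score of 100 or more. The densest bin, from 12995275 to 13495092, held 65 regions, of which 2 scored 100 or more. The 2 sparsest bins were neighbours, from 15494366 to 15994184 with 15 regions and from 15994185 to 16494002 with 18, and each of these held 2 regions of 100 or more. The bin with the most strong regions, from 4498365 to 4998182, held 7 among its 38 regions.

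Bins held a median of 37 regions and a mean of 35.7 ± 11.5 (SD over 35 bins). The number of series-level regions in a bin followed the number of peaks of replicate 2 (Spearman's rho 0.88) more closely than that of replicate 1 (0.67), again as a description over 35 bins. The replicates also ordered the parts of IV differently. Replicate 1 had 26.9 peaks per Mb in the left arm, 24.7 in the centre and 29.2 in the right arm, so the right arm was the densest. Replicate 2 had 36.7, 38.2 and 31.6, so the right arm was the sparsest.

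Of the 1249 regions, 376 (30.1%, 95% Wilson interval 27.6 to 32.7%) were met by at least 1 peak of each replicate, against 29.1% of the whole series-level list. A further 91 (7.29%, against 7.65%) were met by replicate 1 only, 209 (16.7%, against 18.6%) by replicate 2 only and 573 (45.9%, against 44.6%) by neither. Counted singly, replicate 1 met 467 regions (37.4%, against 36.8%) and replicate 2 met 585 (46.8%, against 47.7%). All these shares on IV were near those of the whole list. The series-level list may rest on the same libraries as the replicate lists, so support is not to be read as independent of it. Although regions without support were the most numerous class, they covered 142 kb, or 26.6% of the length of all IV regions, while the regions supported by both covered 286 kb, or 53.3%.

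Support rose steeply with the series-level score. In the highest of 4 equal classes of score on IV (17.63 and above), 288 of 312 regions were met by both replicates (92.3%, interval 88.8 to 94.8%), 7 by replicate 1 only, 17 by replicate 2 only and none by neither. In the next class 74 of 312 were met by both (23.7%), in the one below 13 of 312 (4.17%), and in the lowest 1 of 313. The whole list, cut into 4 equal classes of its own scores, had 89.4, 21.8, 3.68 and 1.59% from highest to lowest. The rise was thus not particular to IV. By deciles on IV, all 125 regions from 51.08 upwards had both replicates, as did 121 of the 125 from 23.04 to 50.52. The 4 exceptions in that decile were 2390209 to 2390681 (25.10), 4653702 to 4654039 (28.66) and 9403709 to 9404127 (28.08), each met by replicate 1 only, and 13783190 to 13783795 (27.58), met by replicate 2 only. The highest-scoring regions met by neither were 874671 to 874982 (16.56), 3311304 to 3311552 (15.51) and 14872299 to 14872578 (14.95). At the other end, 14612597 to 14613207 had peaks of both replicates (scores 113.64 and 92.78) at a series-level score of 3.73, followed by 10222021 to 10222548 (4.97) and 11480333 to 11480722 (4.98).

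**Figure D3:**
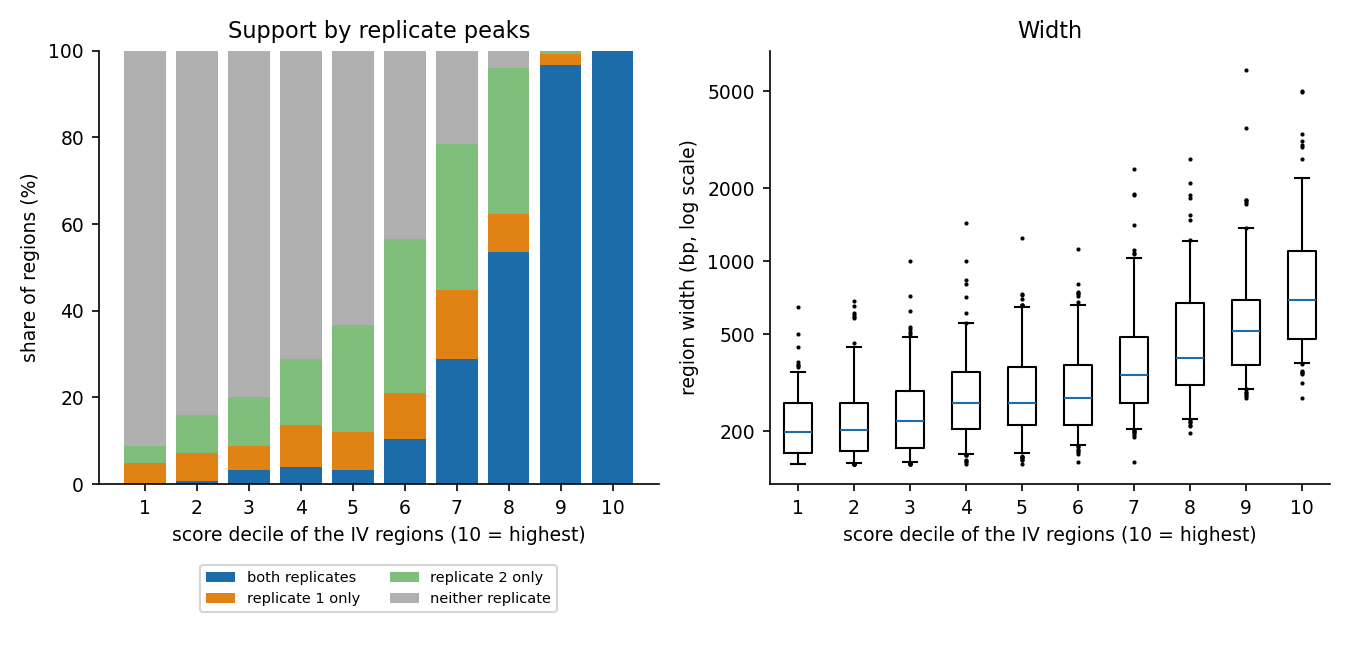
REC-8 regions on IV in deciles of the series-level score (124 or 125 regions each). Left panel: share of regions (%) overlapped by peaks of both replicates, of 1 or of neither. Right panel: width (bp, log scale), with the median, quartiles, whiskers at the 5th and 95th percentiles and points beyond them. Support by both goes from 0% in the lowest decile to 100% in the highest, and the median width from 198 to 693 bp.

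The share of regions met by replicate 2 alone was highest in the centre of IV. Replicate 2 alone met 21.7% of the regions of the centre (96 of 443, 95% Wilson interval 18.1 to 25.7%), 15.6% of those of the left arm (68 of 435, interval 12.5 to 19.3%) and 12.1% of those of the right arm (45 of 371, interval 9.19 to 15.8%). The intervals of centre and left arm overlap, as do those of left and right arm. Regions share their libraries and are not replicates, so these shares are descriptions. Replicate 1 alone met 6.09% in the centre, 6.44% in the left arm and 9.70% in the right arm (27, 28 and 36 regions), with intervals that overlap. Support by both was 28.0% in the centre, 29.0% in the left arm and 34.0% in the right arm, and these intervals overlap too. A higher share for replicate 2 alone in the centre was also present on the other 5 chromosomes (20.7 to 25.1% in the centre, 10.9 to 22.4% in the arms).

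Part of the support by 1 replicate came from peaks that spanned several regions. Of the 91 regions met by replicate 1 only, 25 (27.5%) were touched by a peak that also met another series-level region, and of the 209 met by replicate 2 only, 22 (10.5%). Without these, the highest replicate score in a region of its own was 648.71 for replicate 1 and 507.08 for replicate 2. Over all of IV, 23 peaks of replicate 1 and 22 of replicate 2 met more than 1 region, and up to 3 and 2 regions respectively. The position of the peaks was close in most cases. Where a region was met by a single peak, the middles were a median of 44 bp apart for replicate 1 (445 regions) and 48 bp for replicate 2 (547 regions), and for 90% of regions within 207 and 157 bp. At least 50% of the region was covered in 448 of the 467 regions met by replicate 1 and in 516 of the 585 met by replicate 2. Only 2 regions in each replicate were covered by less than 10%, and 34 of the 782 regions without a replicate 1 peak and 45 of the 664 without a replicate 2 peak had one within 200 bp. Conversely, 7 of the 471 IV peaks of replicate 1 (1.49%, against 2.25% of its list) and 11 of the 621 of replicate 2 (1.77%, against 2.86%) met no series-level region.

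In regions met by both replicates, the replicate scores were compared within their own lists. In replicate 1 the highest peak score per region had a median of 269 and lay between 50.99 and 3178.93, and in replicate 2 the median was 296 and the range 50.70 to 3233.06. Across these 376 regions Spearman's rho between the replicates was 0.69, where it was 0.65 to 0.72 on the other chromosomes. With the series-level score rho was 0.78 for replicate 1 and 0.80 for replicate 2. Regions share their libraries and are not replicates, so these are descriptions. All 55 regions with a series-level score of 100 or more were met by both replicates, with scores of at least 594.64 in replicate 1 and 672.85 in replicate 2. This count is given for IV only. In the whole list, 89.4% of the highest of 4 score classes (16.85 and above) were met by both.

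**Figure D4:**
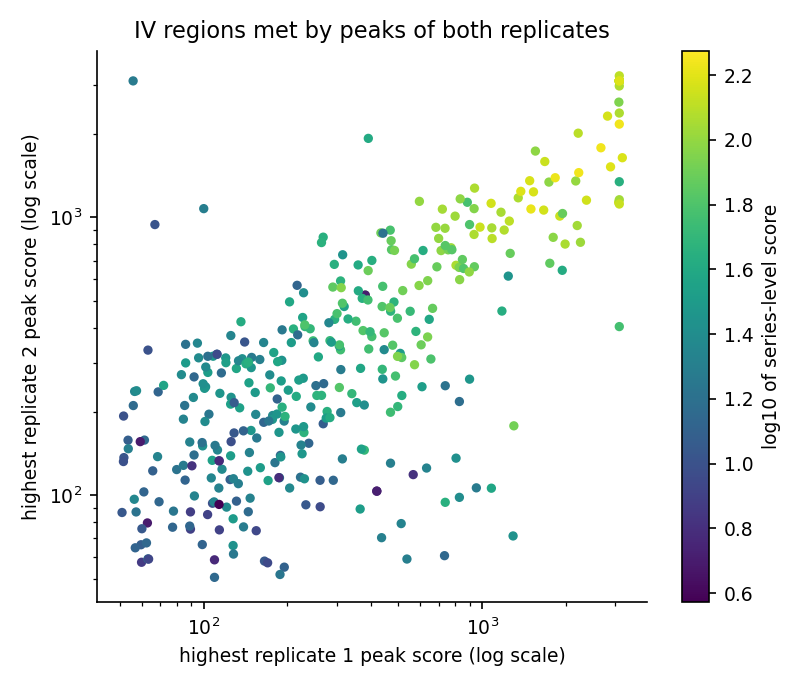
Highest peak score of replicate 1 (horizontal, log scale) and replicate 2 (vertical, log scale) in each of the 376 IV regions met by peaks of both, coloured by the log10 of the series-level score. The points follow a broad rising band (Spearman's rho 0.69) and stack at the tied score of 3100 in replicate 1.

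REC-8 regions on IV were short. The median width was 301 bp (95% interval of the median 287 to 315 bp, quartiles 212 and 475 bp), and the narrowest was 146 bp. The medians of the other chromosomes were 287 to 297.5 bp. Width went with score, with a Spearman's rho of 0.67 over the 1249 regions and of 0.27 within the 376 met by both replicates. Over all regions of each other chromosome it was 0.63 to 0.67. None of the 265 regions narrower than 200 bp was met by both. Between 500 and 1000 bp, 147 of 207 were (71.0%), and between 1000 and 2000 bp 63 of 70 were. These counts by width are given for IV only, so they are not shown to be particular to it. High scores were also found in narrow regions: 27 of the 55 strong regions were narrower than 1000 bp, the narrowest being 418 bp wide.

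Regions of 1000 bp or more numbered 84, as on V (6.73% on IV, 7.57% on V and 5.57% of the list). On IV they made up 26.0% of the covered length. They became more frequent from left to right, with 20 in the left arm, 27 in the centre and 37 in the right arm. In the replicates' own lists the same width was reached by 19, 18 and 30 peaks of replicate 1 and by 13, 13 and 17 peaks of replicate 2. Of the 84, 76 were met by both replicates, a count not given here for the wide regions of the other chromosomes. The widest, from 4467792 to 4473893 (6102 bp), lay within 1 peak of replicate 1 scoring 3100 over 99.2% of its length, but replicate 2 broke it into 6 peaks of up to 1344.39, and its series-level score was only 44.29. The region from 3742202 to 3747241 (5040 bp, 58.71) was likewise met by 1 peak of replicate 1 (3100) and 4 of replicate 2 (at most 404.87). The region from 14476096 to 14481049 (4954 bp) differed from these in scoring 3100 in both replicates and 152.62 in the series-level list. The next were 292010 to 295555 (3546 bp, 25.02), of which replicate 2 covered 22.0%, and 11912951 to 11916305 (3355 bp, 101.83).

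The spacing on IV was uneven, with many short gaps and a few very long ones. The median gap between the end of a region and the start of the next was 4178 bp (95% interval 3415 to 4835 bp), with quartiles of 709 and 16910 bp, and the medians elsewhere ranged from 3487 bp on III to 5578 bp on X. Of the 1248 gaps, 139 (11.1%) were 200 bp or less and 16 (1.28%) were over 100000 bp. No gap was below 43 bp, the shortest value on every chromosome. The longest gaps lay from 6140734 to 6317678 (177 kb), from 16224178 to 16382225 (158 kb) and from 15972792 to 16128686 (156 kb), and neither replicate had a peak inside any of them. The latter 2 gaps flank a stretch in the right arm that contains the fifth strongest region, from 16129296 to 16129844. A neighbour started within 5 kb for 912 regions (73.0%, 95% Wilson interval 70.5 to 75.4%), and this share was 65.9 to 76.2% on the other chromosomes.

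In 2 of the 3 closest pairs a much weaker region lay beside a strong one. The shortest gap, 43 bp, separated 10331862 to 10332223 (7.26) from 10332267 to 10332429 (3.02). The next, of 44 bp, lay between 15059371 to 15059743 (2.08) and 15059788 to 15061105 (104.90), and the one after, of 45 bp, between 15374495 to 15374730 (12.90) and 15374776 to 15376767 (144.14). In both of the latter pairs the weaker member was met by replicate 1 only and the strong one by both replicates. The weaker member scoring 12.90 was still above the IV median of 8.05. Scores of neighbouring regions were otherwise hardly related, with a Spearman's rho of 0.04 over all 1248 neighbouring pairs and of 0.10 over the 496 pairs with a gap of 2 kb or less.

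**Figure D5:**
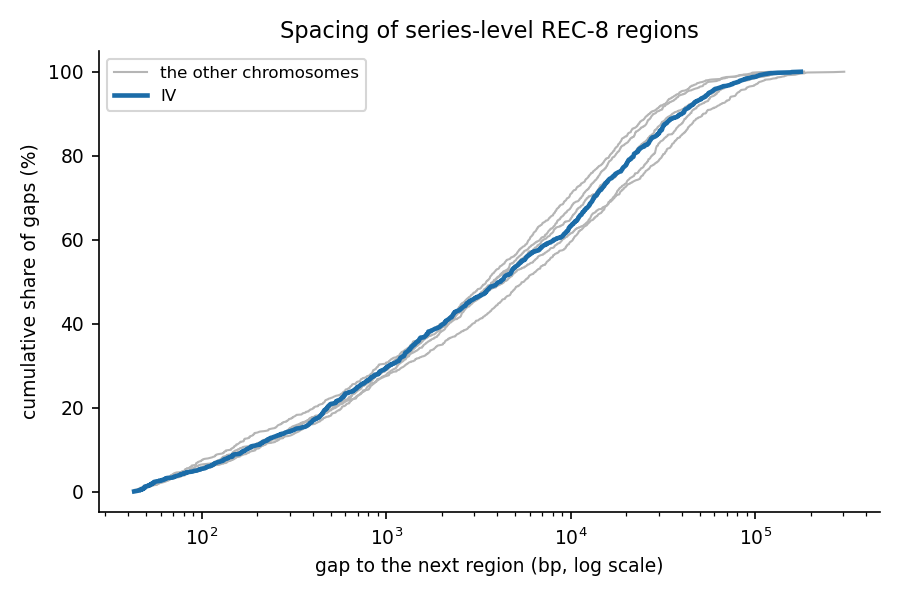
Cumulative share (%) of gaps between neighbouring series-level REC-8 regions by length (bp, log scale), for IV (blue) and each of the other 5 nuclear chromosomes (grey). The curve of IV runs among the others, with a median gap of 4178 bp against 3487 to 5578 bp.

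When regions whose starts were at most 5 kb apart were joined into runs, 337 regions of IV stood alone, 252 formed pairs, 323 lay in runs of 3 to 4 and 337 in 48 runs of 5 or more. Regions in the long runs were a little wider (median 344 bp) and scored lower (median 6.87) than regions that stood alone (279 bp and 8.47). Scores of 100 or more were reached by 10 of the 337 regions in long runs (2.97%) and 14 of the 323 in runs of 3 to 4 (4.33%). The same held for 15 of the 252 in pairs (5.95%) and 16 of the 337 that stood alone (4.75%). Over all of IV the share was 4.40%. The counts are small, and runs are given for IV only. The longest run, from 5582350 to 5607669, had 17 regions in 25.3 kb with a highest score of 24.25, and 4 of them were met by both replicates. The second, from 12194679 to 12209177, had 15 regions in 14.5 kb with a highest score of 29.05, and 3 of them were met by both. The run from 11912951 to 11928633 was unlike these, since it began with the wide region scoring 101.83 and went on with 10 weaker ones.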

How the data were processed

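Peak lists were analysed as deposited, 1 for each REC-8 library and 1 for the series. Each peak's value is a score that the authors deposited, of unstated scale, and series-level and replicate scores are not on a common one. The caller is MACS v2 for the series-level list and MACS for the replicate lists, and the build is WS220, per the file headers and the files' own source column. BWA and ce10 are named per the submitters' processing notes. For caller settings and pooling of reads, the sources used here state nothing. Per the labels' protocols, crosslinking took 20 min in EGS and 10 min in EGS with formaldehyde.

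Groups and replicate numbers came from titles. Support was an overlap of at least 1 bp. A chromosome's end was put at the last base of any peak in the 3 lists, and IV was cut into 35 equal bins of about 500 kb. Regions were placed in arms and centre by their middle and in bins by their start. Shares have 95% Wilson intervals and medians have order-statistic ones, and intervals cover counting error only. No test was made. The interval functions were tested on simulated data. Members, lists and measures were chosen with earlier results of these data known. The rule for named regions took the 10 highest scores, the 5 widest, the 3 longest gaps and 3 closest pairs, the 2 densest and 2 sparsest bins, the first and last region, the 3 highest scores met by neither replicate and the 3 lowest met by both. Score steps, runs, the stretch without strong regions, the bin with most strong regions, deciles and the width of 1000 bp were chosen after values were seen. Alternatives changed overlap, score limits, joining, distance, chromosome end and list. The input libraries had no list of their own and were not analysed here. Python 3.11.15, numpy 2.4.6, scipy 1.17.1, pandas 2.3.3 and matplotlib 3.10.9 were used.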

Additional observations from a re-analysis of the deposited data

How the results depend on the processing

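Over 37 alternatives for 11 results on IV, 10 values stayed within the 95% interval of the value reported and 27 moved beyond it. Support by both replicates (30.1%) was 26.1% when at least 50% of the region had to be covered and 17.1% with the upper 50% of each replicate list. For the upper 50% of the series-level list it was 56.7%. With 1 replicate left out it is by definition the support by the other, 37.4% or 46.8%, and can only be higher or equal. Support by replicate 1 (37.4%) was 22.0% with the upper 50% of replicate lists and 64.2% for the upper 50% of the series-level list. Support by replicate 2 (46.8%) was 41.3% with 50% covered, 43.0% by the middle base, 26.0% with the upper 50% of replicate lists and 77.7% for the upper 50% of the series-level list. In the highest of 4 score classes, support by both (92.3%) was 84.9% with 50% covered, 88.5% by the middle base and 64.4% with the upper 50% of replicate lists. Support by the other replicate, with 1 left out, was 94.6 or 97.8% there. For the upper 50% of the series-level list, which keeps 640 regions of IV, density was 36.6 per Mb, the median score 17.1, the median width 414.5 bp, the median gap 13910 bp and the share with a neighbour within 5 kb 52.3%. Joining regions at gaps of 200 bp or less left 1110 regions, 63.5 per Mb, with a median width of 320.0 bp, a median gap of 5708 bp and 67.0% with a neighbour. That share was 54.5% at 2 kb and 93.7% at 20 kb. The share in the centre (35.5%) was 30.6% for the peaks of replicate 1. These settings change by construction which regions or peaks enter. No paired analysis was possible because no result comes from a test between groups. Unknown depth limits what the absence of a weak peak can show.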

Other observations

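The left end of IV had a peak in both replicates that the series-level list lacked. It ran from base 1 to base 256 in replicate 1 (score 188.05) and from base 1 to base 238 in replicate 2 (score 338.51), and it was the only such place on IV found in both. The first series-level region of IV, from 51326 to 51475 (13.54), was met by replicate 2 only, and the last, from 17493476 to 17493639 (7.89), by neither. Of the 7 IV peaks of replicate 1 that met no series-level region, the highest-scoring was 12730438 to 12732699 (224.57) and the widest 4416389 to 4422129 (170.96, 5741 bp). Replicate 2 had no peak that overlapped either. The end peak and these 2 peaks were named after their values were seen.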
